A study of Mus musculus with 9 samples.

Results

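The sh5 experiment set 1 library of SV40-MES-13 cells carrying the Drosha shRNA sh5 against 2 libraries of the same cells carrying an empty vector (EV). All libraries hold poly(A)-selected RNA. SV40-MES-13 is a mouse kidney line, described by the submitters as mesangial, that grows under the SV40 early region. The shRNAs were delivered by lentivirus in the pLL3.7 plasmid, and cells grew in a mix of high-glucose DMEM and Ham's nutrient medium with fetal bovine serum and antibiotics. The labels call the EV cells WT and the shRNA cells Drosha KO, although the protocols describe knockdown. They do not say how long after infection RNA was taken or whether the cells were cloned or pooled. A second Drosha shRNA, sh7, is present in 2 further mRNA libraries, which serve here as a comparison. In all, 3 of the 9 samples of the series form the comparison, and 12530 of the 55357 genes in the table had a mean of at least 1 TPM (transcript abundance scaled to a fixed sum per library) over these 3 libraries. The shRNAs target different stretches of Drosha, and both target sequences are shown because each names 1 arm of the mRNA experiment.
sh-5: cctggaatatgtccacacttt
sh-7: gtgtgcccattgaaataaa

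Drosha is the nuclear RNase III enzyme that cuts hairpins out of primary microRNA transcripts. It works with the RNA-binding protein Dgcr8 in the Microprocessor complex, and the cut hairpins are exported, cut again by Dicer and loaded into Argonaute proteins. The Microprocessor also cuts a hairpin in the Dgcr8 mRNA itself, and some long primary transcripts build up as uncut RNA when the enzyme is lacking. The title of the series links Drosha to the ribosome and to Gata3, a transcription factor.

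With a single sh5 library there is no replicate of the knockdown arm. Each gene was therefore described by whether its sh5 value lay outside the range of both EV libraries on the log2(TPM + 1) scale, and by how far it lay beyond the nearer one. Every log2 difference below is the sh5 value minus the mean of both EV values on that scale, where changes of low genes appear smaller than they are. In poly(A) RNA of a whole culture, fewer cells of a type and less RNA per cell cannot be told apart. EV replicate 1 stood apart from the other libraries. Over the tested genes the EV libraries correlated at r = 0.967, whereas sh5 correlated with EV replicate 2 at r = 0.981 and with EV replicate 1 at r = 0.964. The EV libraries differed from each other by at least 1 log2 unit for 586 genes (4.68%), with a median gap of 0.18. Each of the 3 libraries held 20280 to 20868 genes with values above 0. Most markers of the labelled cell type were near 0. Of 13 mesangial markers 2 passed the filter: the intermediate filament gene Vim at 848 and 794 TPM in EV and 653 TPM in sh5, and Des at about 1 TPM in all 3 libraries. The renin gene Ren1 was listed at 0, and Pdgfrb, the growth factor receptor of mesangial cells, was at 0.251 and 0.139 TPM in EV and 0.120 TPM in sh5. Of 10 tubule and epithelial markers 7 passed, with summed levels of 757 and 1042 TPM in EV and 1044 TPM in sh5. Endothelial markers summed to at most 1.11 TPM and immune markers to 13.5 to 19.03 TPM over the 3 libraries.

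Drosha mRNA was at 60.0 and 56.4 TPM in EV and at 36.0 TPM in sh5, 1.57-fold below the lower EV library. In the sh7 libraries it was at 8.39 and 14.9 TPM, so the sh5 value lay between those of EV and sh7. The log2 difference was -0.68 (SE 0.329), which did not pass limma (adjusted p = 0.564). Dgcr8 was at 26.7 and 26.3 TPM in EV and 24.3 TPM in sh5, against 171 and 161 TPM in sh7. In sh5 it thus lay just below EV, while both sh7 libraries lay far above. Gata3, a zinc finger transcription factor, was under the filter, with 0.0872 and 0.396 TPM in EV and 0.5002 TPM in sh5.

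The host transcripts of microRNAs also lay below EV in sh5 and above EV in sh7. The EV libraries are shared by both comparisons. Mir22hg, the precursor of miR-22, was at 4.55 and 4.46 TPM in EV, at 1.20 TPM in sh5 and at 42.0 and 38.4 TPM in sh7. Mir17hg, which carries the miR-17 to 92 cluster, was at 2.24 and 2.30 TPM in EV, at 0.545 TPM in sh5 and at 7.06 and 10.6 TPM in sh7. For both genes the EV values were close together and the sh5 value was apart from them. Dleu2, the host of miR-15a and miR-16, was at 4.71 and 6.36 TPM in EV, at 2.89 TPM in sh5 and at 18.6 and 22.1 TPM in sh7. Mir100hg was at 1.36 and 3.79 TPM in EV, so wide apart that the sh5 value of 1.34 TPM lay only just outside. These 4 were all the list members that passed the filter, and their values were already known when they were chosen. Mature products are shown because all 4 host transcripts lay on opposite sides of EV in sh5 and sh7. Sequences and positions are from RefSeq on GRCm38.p6, with the seed (bases 2 to 8) in capitals. miR-17-5p (chr14:115043684-115043706, plus strand) and miR-20a-5p (chr14:115044183-115044205, plus strand) share 1 seed. miR-15a-5p (chr14:61632075-61632096, minus strand) and miR-16-5p (chr14:61631936-61631957, minus strand) share another. miR-22-3p lies at chr11:75463772-75463793 and miR-100-5p at chr9:41531437-41531458, both on the plus strand.
miR-17-5p: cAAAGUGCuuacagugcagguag
miR-20a-5p: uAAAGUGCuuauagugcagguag
miR-15a-5p: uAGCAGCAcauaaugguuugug
miR-16-5p: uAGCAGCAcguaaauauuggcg
miR-22-3p: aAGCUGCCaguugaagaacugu
miR-100-5p: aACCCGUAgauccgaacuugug

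The difference between the shRNAs was tested directly with limma over all genes. At an adjusted p under 0.05 it called 2 genes (0.016% of those tested), Mir22hg and Dgcr8, and 2547 genes had an unadjusted p under 0.05. Mir22hg was lower in sh5 than in sh7 by a log2 difference of -4.23 (SE 0.174, limma adjusted p = 0.025), and Dgcr8 by -2.72 (SE 0.106, limma adjusted p = 0.025). Mir17hg differed by -2.65 (SE 0.307, limma adjusted p = 0.136) and did not pass.

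Across all tested genes the sh5 library lay above both EV libraries for 3403 genes (27.2%) and below both for 5501 (43.9%), and 3626 lay within their range. The median difference over all genes was -0.05. The excess on the lower side depended on the scaling. With median-of-ratios scaling 36.4% lay above and 35.4% below, and with quantile normalization 36.6% lay above and 33.4% below. At least 1 log2 unit beyond both EV libraries lay 31 genes above (0.247%) and 148 below (1.18%). These counts rest on both controls. Against EV replicate 1 alone they were 327 above and 409 below, and against EV replicate 2 alone 100 above and 261 below. Of the 148 genes, 47 were named genes, 77 predicted models or unnamed IDs and 24 short RNA loci, and 55 had a mean of at least 5 TPM. Of the 31 genes, 9 were named and 3 had a mean of at least 5 TPM. A value of 0 was listed for 81 of the 148 genes and 18 of the 31. A gene at 0 in sh5 passed the mean filter through its EV values alone. The part of such zeros in these counts was not tested. At the edge of the 1 log2 limit, Gm15850 lay 1.012 below and the zinc finger gene Zc3h7a 0.999 below. On the upper side Pam16l lay 1.008 above and Rps6-ps4 0.996 above. limma called 0 genes (0%) for sh5 against EV, with a smallest adjusted p of 0.347. Before adjustment 1211 genes had a p under 0.05, of which 207 were higher and 1004 lower in sh5. No gene named below therefore passed the test of sh5 against EV, and the text gives positions relative to the EV range. Counts of list members are read against the 27.2% of all genes above and the 43.9% below.

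**Figure D1:**
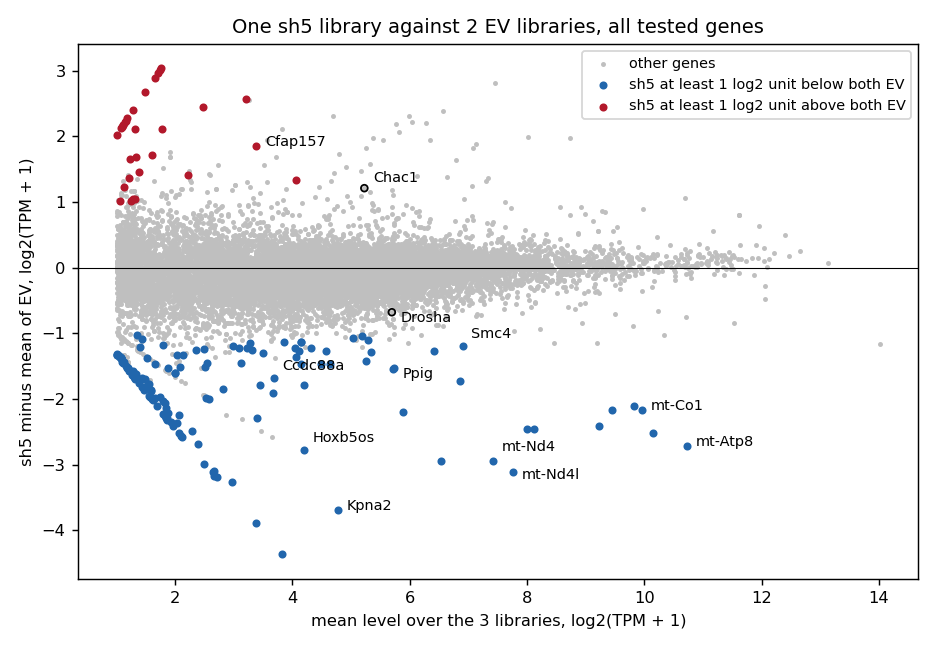
Difference between sh5 and the mean of EV in log2(TPM + 1) against the mean level over the 3 libraries, 1 point per tested gene. Blue and red points are the 148 genes at least 1 log2 unit below and the 31 genes at least 1 log2 unit above both EV libraries; the most abundant blue points are mitochondrially encoded mRNAs, and open circles mark Drosha and Chac1.

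Of the 36 lists the one with the lowest median (-2.42) was that of the mitochondrially encoded mRNAs, which code for core subunits of the respiratory chain and ATP synthase. Of 13, 12 lay below both EV libraries and 11 by at least 1 log2 unit. Among subunits of complex I, mt-Nd4l was at 381 and 231 TPM in EV and 33.5 TPM in sh5, 6.90-fold below the lower EV library. mt-Nd5 was at 172 and 87.5 TPM against 15.02 TPM. For both genes the sh7 libraries lay within or above the EV range, at 387 and 642 TPM for mt-Nd4l and 145 and 283 TPM for mt-Nd5. The cytochrome c oxidase subunit mt-Co1 was at 1515 and 1181 TPM in EV, at 298 TPM in sh5 and at 1759 and 3248 TPM in sh7. mt-Cytb, the cytochrome of complex III, was at 490 and 277 TPM in EV and 66.6 TPM in sh5. mt-Atp8, an ATP synthase subunit, was at 2578 and 2141 TPM in EV and 356 TPM in sh5. EV replicate 1 was above EV replicate 2 for every one of these genes, yet sh5 lay below the lower of the pair. Of the 13, 1 lay less than 1 log2 unit below EV and 1 lay above. mt-Co3 was at 1204 and 910 TPM in EV and 563 TPM in sh5, a difference of only -0.89. mt-Nd3 was at 1961 and 1865 TPM in EV and 2129 TPM in sh5, above both. mt-Nd4l overlaps mt-Nd4, mt-Atp8 overlaps mt-Atp6, and nuclear pseudogene copies share sequence with several of them, so the division of reads among them is uncertain. One such copy, Gm28661, was at 1800 and 1339 TPM in EV and 271 TPM in sh5.

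**Figure D2:**
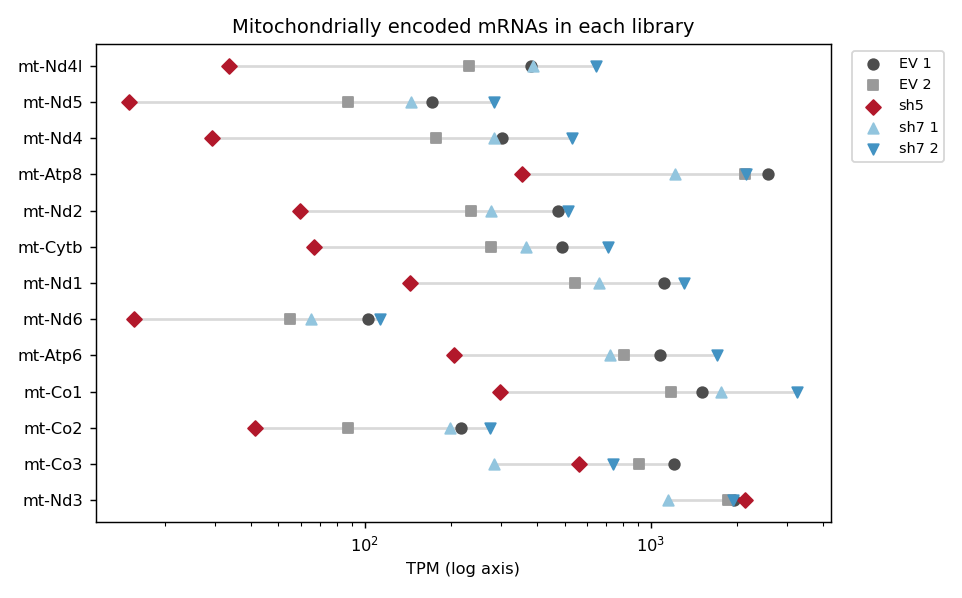
TPM of the 13 mitochondrially encoded mRNAs in each library on a log axis, ordered by the difference between sh5 and EV. The sh5 library (red diamonds) is the lowest of the 5 for 11 mRNAs, lies above the first sh7 library for mt-Co3 and is the highest for mt-Nd3.

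The nuclear genes of the same complexes did not share that position. Of 81 nuclear-encoded oxidative phosphorylation genes 44 lay above both EV libraries, 17 lay below, and the median was 0.05. The complex I subunit Ndufb2 was at 64.9 and 64.4 TPM in EV and 84.0 TPM in sh5. Ndufs6 of the same complex was at 202 and 231 TPM in EV and 275 TPM in sh5. Ndufs1, its largest iron-sulfur subunit, was the lowest member, at 84.2 and 76.2 TPM in EV and 60.7 TPM in sh5. Differences of single nuclear genes ran from -0.39 to 0.37.

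Kpna2 lay farther below EV than any other named protein-coding gene. It encodes an importin alpha, the adaptor that binds nuclear localization signals and carries cargo into the nucleus with importin beta. It was at 45.9 and 31.1 TPM in EV and 2.01 TPM in sh5, 15.5-fold below the lower EV library. In sh7 it was at 27.4 and 32.1 TPM, close to EV. The log2 difference of sh5 from EV was -3.69 (SE 0.269, limma adjusted p = 0.347). Its relatives did not follow. Kpna1 was at 32.0 and 38.9 TPM in EV and 33.6 TPM in sh5, Kpna4 at 61.5 and 80.8 TPM against 76.0 TPM, and Kpna6 at 49.4 and 44.2 TPM against 46.0 TPM. All 3 lay within the EV range. Kpna3, at 82.7 and 91.8 TPM in EV, lay slightly below at 75.0 TPM, and the oocyte gene Kpna7 was listed at 0. Among 30 importins, exportins and Ran factors 17 lay below and 4 above, against 43.9% and 27.2% of all genes. The list median was -0.07, against -0.05 over all genes. The nuclear pore filament gene Ranbp2 was at 33.0 and 32.3 TPM in EV and 20.1 TPM in sh5.

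Next in rank came Hoxb5os, a noncoding transcript beside the homeobox gene Hoxb5. It was at 24.4 and 24.6 TPM in EV, at 2.71 TPM in sh5 and at 24.3 and 42.2 TPM in sh7, so sh5 alone was low. Whether reads were counted by strand is not stated, so its reads cannot be told apart from those of an overlapping gene on the other strand. Ccdc88a, which encodes the actin-binding protein girdin, was at 17.2 and 14.1 TPM in EV and 4.18 TPM in sh5. Cntrl, a centriole protein gene, was at 24.2 and 18.8 TPM against 7.06 TPM. Both were at EV level in at least 1 sh7 library, with 11.5 and 16.9 TPM for Ccdc88a and 21.3 and 26.5 TPM for Cntrl.

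**Figure D3:**
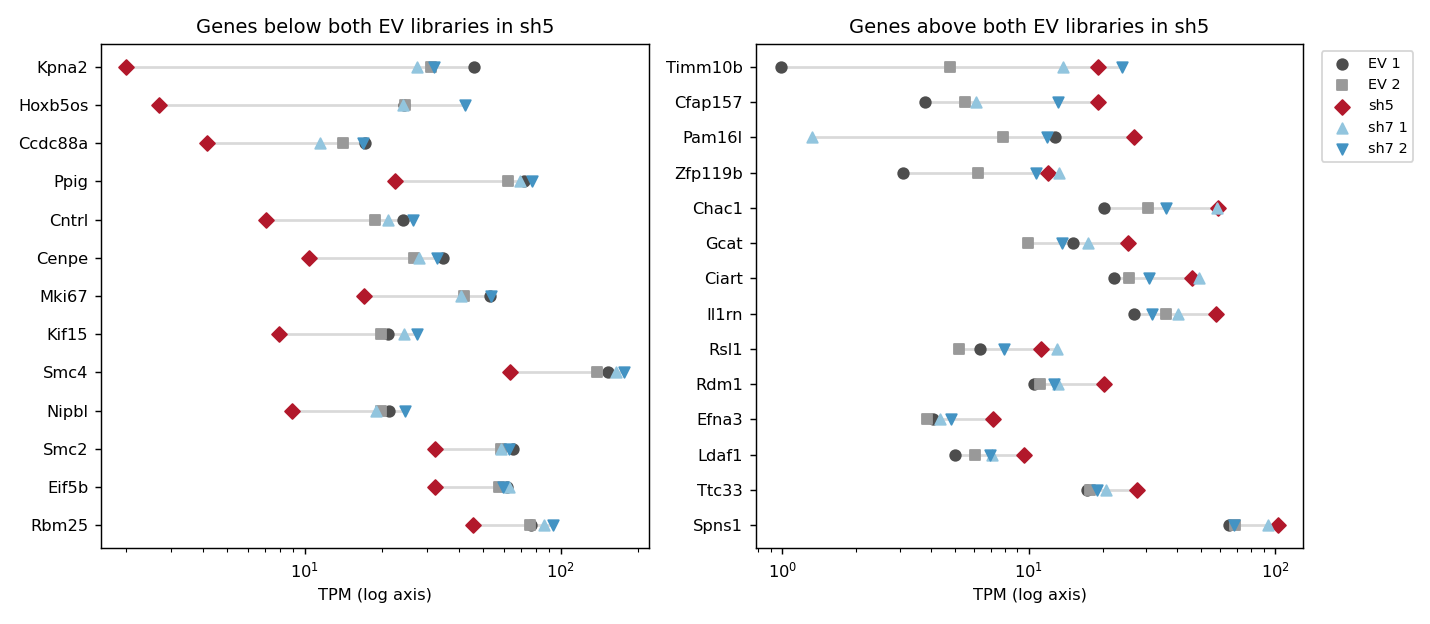
TPM on a log axis in each of the 5 mRNA libraries for genes below (left) and above (right) both EV libraries in sh5, with mitochondrial genes left out. On the left the sh5 library is apart from all 4 other libraries, as for Kpna2 at 2.01 TPM; on the right the sh7 libraries often lie between EV and sh5 or reach or pass sh5, as for Chac1 and Zfp119b.

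Genes that shape mitotic chromosomes lay below EV almost throughout. Condensin compacts chromosomes and cohesin holds sister chromatids together. Of 22 condensin and cohesin genes 21 lay below both EV libraries and 2 by at least 1 log2 unit. The shares over all genes were 43.9% and 1.18%, and the list median was -0.46. Smc4 and Smc2, the ATPases of condensin, differed from EV by -1.19 and -0.91. Smc2 was at 65.4 and 58.3 TPM in EV and 32.5 TPM in sh5. The cohesin loader gene Nipbl was at 21.5 and 19.9 TPM in EV and 8.93 TPM in sh5. The cohesin ATPase genes Smc1a (146 and 142 TPM against 97.3 TPM) and Smc3 (108 and 88.6 TPM against 63.6 TPM) lay less far below. Ncaph2, a subunit of condensin II, was the 1 member above EV, at 183 and 180 TPM against 188 TPM.

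Of 55 G2 and M phase genes 41 lay below both EV libraries and 5 above, against 43.9% and 27.2% of all genes. The list median was -0.42 against EV replicate 1 and -0.15 against EV replicate 2, so its size rests on the control chosen. The kinetochore motor gene Cenpe was at 34.7 and 26.7 TPM in EV and 10.4 TPM in sh5. Mki67, the gene of the Ki-67 proliferation antigen, was at 53.1 and 42.0 TPM against 17.0 TPM. The spindle kinesin gene Kif15 was at 21.2 and 19.9 TPM against 7.93 TPM, and at 24.4 and 27.4 TPM in sh7. Other mitotic regulators, looked up after the values were seen, stayed near EV. Plk1, the polo kinase, was at 133 and 127 TPM in EV and 130 TPM in sh5, and Cdk1, the mitotic cyclin-dependent kinase, at 414 and 434 TPM against 417 TPM. Birc5, the survivin gene, was at 297 and 268 TPM in EV and 286 TPM in sh5. Aurka, the Aurora A kinase gene, lay above at 135 TPM against 125 and 115 TPM. Replication genes did not share this position. Of 50 S phase genes 20 lay above and 12 below, against 27.2% and 43.9% of all genes, and the list median was 0.03. Rfc1, the large subunit of the clamp loader, was at 73.3 and 62.2 TPM in EV and 41.5 TPM in sh5, whereas the flap endonuclease gene Fen1 was at 97.7 and 105 TPM against 122 TPM. Of 50 DNA repair genes 26 lay below and 10 above, against 43.9% and 27.2% of all genes, with a median of -0.11. Without Atm, Atr, Brca2 and Prkdc, which encode very large proteins, 22 of 46 lay below and 10 above. The median was then -0.08, against -0.05 over all genes. Brca2 was at 14.2 and 13.6 TPM in EV and 7.96 TPM in sh5. Rdm1 lay farthest above among the repair genes, at 10.5 and 11.1 TPM in EV and 20.2 TPM in sh5.

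Splicing factors of the nuclear speckle, many with repeats of arginine and serine, lay below EV as well. Of 42 genes 32 lay below and 4 above, against 43.9% and 27.2% of all genes, with a list median of -0.30. Ppig, a peptidyl-prolyl isomerase of speckles, was at 71.9 and 62.3 TPM in EV and 22.6 TPM in sh5, and at 69.5 and 77.4 TPM in sh7. The splicing regulator gene Rbm25 was at 76.6 and 76.2 TPM against 45.5 TPM. Srsf5 was at 431 and 282 TPM against 183 TPM, with a wide gap between the EV libraries. Srsf1, Srsf3 and Srsf9, core members of the same family, lay near EV, with Srsf1 at 290 and 280 TPM in EV and 296 TPM in sh5.

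The genes of microRNA biogenesis and silencing lay below EV for 15 of 20 and above for 2, with a median of -0.33. Over all genes the shares were 43.9% and 27.2%. The 15 include Drosha itself, the gene that the shRNA targets. Tut4, which adds uridines to precursor microRNAs, was at 16.3 and 14.7 TPM in EV, at 8.54 TPM in sh5 and at 19.2 and 19.1 TPM in sh7. Ago2, the slicing Argonaute, was at 17.2 and 15.7 TPM in EV and 10.7 TPM in sh5. Dicer1 was at 22.3 and 26.2 TPM against 19.2 TPM. Tarbp2, a Dicer partner, lay above EV, at 55.6 and 65.1 TPM against 76.9 TPM.

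Some of the lowest genes, such as Cenpe, Mki67 and Nipbl, encode very large proteins. A list of 95 genes of such proteins was drawn up after the values were seen, some of its members having been noticed for their low values. Of the 87 that passed the filter, 79 lay below both EV libraries, 1 lay above, and the median was -0.53. Without the 9 members at least 1 log2 unit below, 70 of 78 lay below, with a median of -0.49. The remaining members were also chosen with their values known, so this count is no separate check. The median was about the same against either EV library, at -0.55 against EV replicate 1 and -0.54 against EV replicate 2. Macf1, a giant linker of microtubules and actin, was at 54.2 and 44.2 TPM in EV and 19.5 TPM in sh5. The nuclear envelope protein gene Syne2 was at 23.6 and 16.6 TPM against 7.13 TPM. The tumour suppressor gene Apc was at 18.7 and 19.9 TPM against 7.67 TPM, and Huwe1, a large ubiquitin ligase gene, at 104 and 105 TPM against 56.8 TPM. The exception was Lyst, a regulator of lysosome size, at 1.62 and 2.24 TPM in EV and 5.12 TPM in sh5. Other lists were drawn up at the same time. Golgins and Golgi coiled-coil proteins had 13 of 16 below (median -0.71), centrosome and centriole proteins 46 of 56 (-0.42) and kinesins 22 of 30 (-0.45). Golga4, a golgin of the trans-Golgi, was at 17.7 and 15.8 TPM in EV and 7.10 TPM in sh5, and at 23.1 and 25.5 TPM in sh7. Zinc finger genes with Zfp symbols gave no such picture, with 117 of 306 below and 85 above, against 43.9% and 27.2% of all genes. Their median was -0.01. The list of very large proteins shares 1 gene with the 22 condensin and cohesin genes and 4 with the 55 G2 and M phase genes. It shares 4 with the 50 DNA repair genes, and 0 with the speckle factors and the genes of microRNA biogenesis. Transcript length is not in the files used, and its part in the result was not tested.

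**Figure D4:**
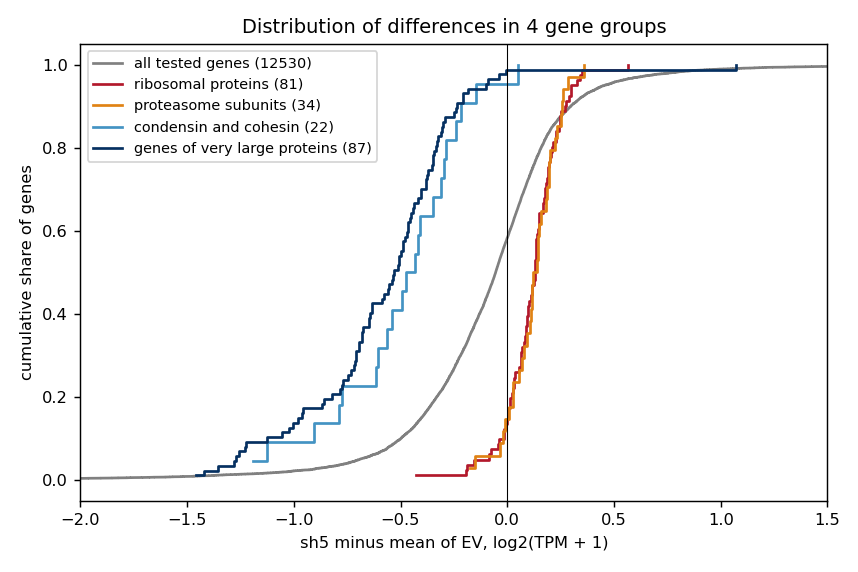
Cumulative share of genes against the difference between sh5 and EV in log2(TPM + 1), for all tested genes and 4 groups, 1 line each, with the number of genes in brackets. The lines of the very large proteins and of condensin and cohesin lie to the left of all genes, and those of ribosomal proteins and proteasome subunits to the right and steeper.

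Genes of the cytosolic ribosome, the mitochondrial ribosome and the proteasome lay mostly above EV, by small amounts. Of 81 cytosolic ribosomal protein genes 66 lay above both EV libraries and 8 below, with a median of 0.13. For the small subunit 30 of 33 lay above and for the large subunit 36 of 48. Rplp1, an acidic stalk protein gene, was at 2810 and 2997 TPM in EV, at 3681 TPM in sh5 and at 2766 and 2399 TPM in sh7. Rps23, a decoding-site protein gene, was at 694 and 729 TPM in EV, at 861 TPM in sh5 and at 665 and 647 TPM in sh7. For both, sh5 was above and sh7 below EV. Together the listed large subunit genes took 8.66% and 8.91% of TPM in EV and 9.55% in sh5. Mitochondrial ribosomal proteins had 51 of 78 above and 7 below (median 0.12), with Mrps10 at 138 and 145 TPM in EV and 182 TPM in sh5. Proteasome subunits had 26 of 34 above and 3 below (median 0.13), with the core subunit gene Psmb3 at 622 and 661 TPM against 783 TPM. These medians kept their sign under each setting of scaling, filter and pseudocount tried, but their size moved. The lowest was 0.02 for the large and 0.05 for the small cytosolic subunit. For mitochondrial ribosomal proteins it was 0.11 and for the proteasome 0.12. The highest were 0.19, 0.21, 0.19 and 0.20 in the same order.

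Translation factors divided. Of 52, 30 lay above and 15 below, against 27.2% and 43.9% of all genes, and the list median was 0.07. Eif2b2, a subunit of the exchange factor of eIF2, was at 163 and 172 TPM in EV and 227 TPM in sh5. Eif5b, the GTPase of subunit joining, was at 61.6 and 57.5 TPM against 32.3 TPM, and the scaffold gene Eif4g3 at 36.6 and 36.6 TPM against 22.0 TPM. Ribosome biogenesis factors lay on both sides, with 31 above and 34 below of 82, against 27.2% and 43.9% of all genes. Their median of -0.01 turned positive under median-of-ratios scaling and quantile normalization. Dkc1, the pseudouridine synthase of box H/ACA particles, was among the lower ones, at 110 and 109 TPM in EV, at 73.8 TPM in sh5 and at 88.0 and 89.3 TPM in sh7.

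Genes of the integrated stress response lay above EV for 24 of 30 and below for 1, with a median of 0.25 that was 0.31 against EV replicate 1 and 0.25 against EV replicate 2. In this response, phosphorylated eIF2 favours translation of Atf4, which switches on genes of amino acid supply. Chac1, a glutathione-degrading enzyme, was at 20.2 and 30.4 TPM in EV, at 58.7 TPM in sh5 and at 58.3 and 36.2 TPM in sh7. Trib3, a pseudokinase, was at 39.4 and 60.7 TPM in EV, at 93.1 TPM in sh5 and at 74.5 and 53.4 TPM in sh7. Cth, a cysteine-making enzyme, was at 21.7 and 40.9 TPM in EV and 58.6 TPM in sh5. For these 3 genes sh5 was above both EV libraries and also above both sh7 libraries. Atf4 itself differed little, at 456 and 465 TPM in EV and 480 TPM in sh5. Genes of serine and asparagine synthesis, named after their values were seen, showed closer controls. Psph, the last enzyme of serine synthesis, was at 124 and 110 TPM in EV and 163 TPM in sh5, against 121 and 85.4 TPM in sh7. Asns, asparagine synthetase, was at 185 and 173 TPM in EV and 222 TPM in sh5, against 183 and 126 TPM in sh7. The glycine pathway gene Gcat, which is outside the list, was at 15.1 and 9.97 TPM in EV and 25.4 TPM in sh5. The unfolded protein response list had 16 of 30 above and 6 below, with a median of 0.09 and Herpud1, an ER degradation factor gene, at 50.5 and 53.4 TPM against 67.0 TPM.

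Promoters are shown for 3 of these genes because members of the list lay on 1 side together. The windows run from 250 bases before to 50 after the start of the gene in RefSeq on GRCm38.p6, and both strands were searched for TGATGNAA, the CARE element that Atf4 dimers bind. These letters overlap those that C/EBP factors can bind. Of 27 list genes with a window, 10 held a match (37.0%), against 4.51% of the 27025 genes in the table and 1 of 18 cholesterol genes. The list was chosen as genes of the response that Atf4 drives, so this share follows from the choice and is no result about sh5. A second motif, TCACNCCAC, was searched in the same way. It matched 0 of the 27 list genes, 1 of the 18 cholesterol genes and 1.44% of all genes with a window. A match is a description of letters, and no binding was measured. Capitals mark the matches. The Chac1 window (chr2:119350992-119351291, plus strand) has 1 match that starts 193 bases before the start site, the Slc7a11 window (chr3:50443564-50443863, minus strand) has matches at 66 and 47 bases before it, and the Asns window (chr6:7693160-7693459, minus strand) has 1 at 23 bases before it. Slc7a11, the cystine transporter, was at 3.86 and 16.2 TPM in EV and 17.1 TPM in sh5, so that the EV libraries differed far more from each other than the nearer one did from sh5.
Chac1: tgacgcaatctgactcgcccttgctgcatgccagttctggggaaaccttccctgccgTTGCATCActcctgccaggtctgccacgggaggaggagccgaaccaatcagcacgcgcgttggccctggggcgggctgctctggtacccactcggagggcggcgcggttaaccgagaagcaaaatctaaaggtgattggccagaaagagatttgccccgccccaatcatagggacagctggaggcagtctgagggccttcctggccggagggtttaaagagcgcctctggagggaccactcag
Slc7a11: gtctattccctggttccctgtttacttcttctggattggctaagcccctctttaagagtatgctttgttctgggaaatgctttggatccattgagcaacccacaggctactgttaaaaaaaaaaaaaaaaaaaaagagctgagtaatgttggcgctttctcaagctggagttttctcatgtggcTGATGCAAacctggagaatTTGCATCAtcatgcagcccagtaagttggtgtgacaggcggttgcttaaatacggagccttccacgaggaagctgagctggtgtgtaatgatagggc
Asns: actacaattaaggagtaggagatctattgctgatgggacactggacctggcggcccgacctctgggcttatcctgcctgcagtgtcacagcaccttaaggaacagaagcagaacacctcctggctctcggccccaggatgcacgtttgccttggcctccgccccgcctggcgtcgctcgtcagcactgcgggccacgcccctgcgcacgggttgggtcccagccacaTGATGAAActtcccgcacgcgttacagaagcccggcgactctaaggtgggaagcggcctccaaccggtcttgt

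Targets of p53 lay above EV for 21 of 32 and below for 8, in a line in which SV40 large T antigen binds p53. Their median was 0.47 against EV replicate 1 and 0.15 against EV replicate 2. Cdkn1a, the cell cycle inhibitor p21, was at 82.2 and 135 TPM in EV and 182 TPM in sh5. Phlda3, an inhibitor of Akt signalling, was at 51.5 and 80.7 TPM in EV and 108 TPM in sh5. In sh7 both genes were within the EV range, with 132 and 134 TPM for Cdkn1a and 62.3 and 62.8 TPM for Phlda3.

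Genes of cholesterol synthesis and uptake lay below EV for 21 of 26 and above for 1. Their median was -0.41 against EV replicate 1 and -0.16 against EV replicate 2. Hmgcs1, the synthase that makes HMG-CoA, was at 194 and 147 TPM in EV, at 102 TPM in sh5 and at 158 and 151 TPM in sh7. In this gene sh5 was the lowest of the 5 libraries. Insig1, which holds back sterol synthesis, was at 147 and 130 TPM in EV and 101 TPM in sh5, with sh7 lower still at 93.6 and 98.1 TPM.

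Type I interferon response genes show what the choice of control does. Of 60 genes 56 lay within the EV range, 3 above and 1 below. EV replicate 1 held the lowest of the 3 values for 59 of them. The median was 2.39 against EV replicate 1 and -0.53 against EV replicate 2, so the direction turned with the control. B2m, the light chain of MHC class I, was at 594 and 2072 TPM in EV, at 2303 TPM in sh5 and at 3554 and 3662 TPM in sh7. Samd9l, an antiviral restriction factor gene, was the 1 gene below both, at 24.5 and 47.0 TPM in EV and 20.4 TPM in sh5, against 70.3 and 81.2 TPM in sh7. NF-kB and inflammatory mediators were mixed, with 16 of 34 above, 9 below and a median of 0.21 (0.27 and 0.05 against EV replicates 1 and 2). The chemokine gene Ccl5 was at 12.1 and 94.2 TPM in EV and 135 TPM in sh5, whereas Nfkbiz, a nuclear IkB protein gene, was at 47.1 and 41.8 TPM against 25.1 TPM.

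**Figure D5:**
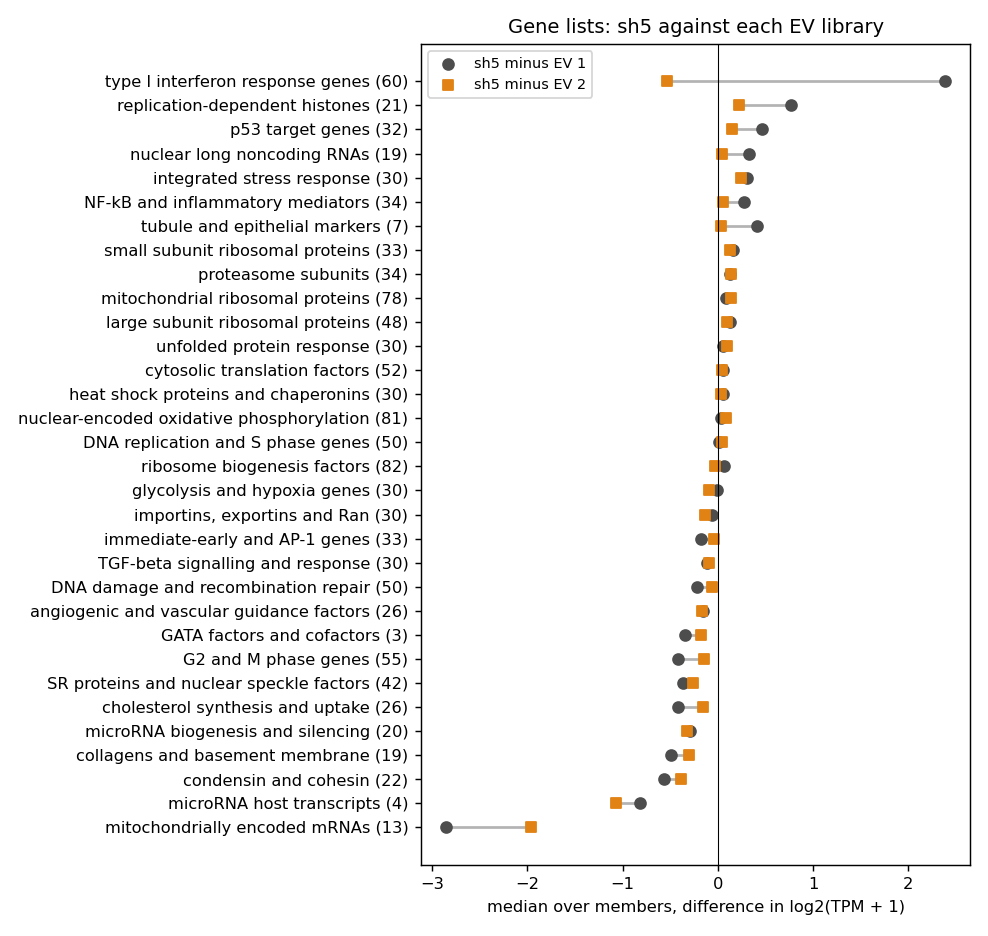
Median difference between sh5 and each EV library for 32 gene lists with at least 3 members past the filter, in log2(TPM + 1), with the number of such members in brackets. Points for both controls lie close together for most lists, far apart and on opposite sides of 0 for the interferon list, and far left for the mitochondrially encoded mRNAs.

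Matrix and signalling genes are read against the 43.9% of all genes below and the 27.2% above. Of 19 collagen and basement membrane genes 16 lay below EV and 0 above, with a median of -0.37. Col4a5, a basement membrane collagen gene mutated in Alport syndrome, was at 16.9 and 11.99 TPM in EV and 6.27 TPM in sh5. Of 30 TGF-beta genes 17 lay below and 5 above (median -0.10). Ltbp3, which tethers latent TGF-beta, was at 23.8 and 25.0 TPM in EV, at 11.7 TPM in sh5 and at 26.2 and 24.0 TPM in sh7, whereas Bmp4 was at 6.68 and 2.80 TPM against 11.9 TPM. Angiogenic and vascular guidance factors had 11 of 26 below and 5 above (median -0.11), near the share of all genes, with the lipoprotein lipase inhibitor gene Angptl4 at 4.50 and 9.53 TPM in EV and 15.8 TPM in sh5. Of 8 GATA factors and cofactors 3 passed the filter, and all 3 lay below. They were the cofactor genes Zfpm1 and Zfpm2 (Zfpm2 at 21.7 and 18.4 TPM in EV and 13.2 TPM in sh5) and Gata4. Gata4 was at 2.67 and 2.51 TPM in EV and 2.16 TPM in sh5. Under the filter, Gata2 and Gata3 lay above both EV libraries, Gata5 and Gata6 below, and Gata1 within their range. Immediate-early genes had 10 of 33 below and 4 above (median -0.09), both smaller shares than over all genes, with Nr4a1, an orphan nuclear receptor gene, at 10.5 and 11.3 TPM against 6.97 TPM. Glycolysis and hypoxia genes had 14 of 30 below and 5 above, and their median of -0.04 turned positive under median-of-ratios scaling and quantile normalization.

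Among chaperones 17 of 30 genes lay above and 7 below (median 0.06), against 27.2% and 43.9% of all genes. Hspa1b was at 33.2 and 38.8 TPM in EV and 55.5 TPM in sh5. Of 21 histone genes 14 lay above and 3 below, against the same shares of all genes. Their median was 0.77 against EV replicate 1 and 0.22 against EV replicate 2. H4c9 was at 17.0 and 15.2 TPM in EV and 25.1 TPM in sh5. Most histone genes were under 5 TPM in these poly(A) libraries and share sequence, and the lowest member, H1f0, is a linker histone not tied to replication. Nuclear long noncoding RNAs lay on both sides, with 10 of 19 above and 7 below, and their median of 0.30 turned negative with no filter on low values. Snhg12, a snoRNA host, was at 17.8 and 60.0 TPM in EV and 75.5 TPM in sh5, whereas Snhg3, another snoRNA host, was at 51.3 and 41.8 TPM in EV and 33.0 TPM in sh5.

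The genes farthest above EV were few and mixed. Cfap157, a ciliary protein gene, was at 3.79 and 5.49 TPM in EV, at 19.04 TPM in sh5 and at 6.11 and 13.2 TPM in sh7. Il1rn, the interleukin-1 receptor antagonist, was at 26.6 and 36.0 TPM in EV and 57.8 TPM in sh5. Ciart, a circadian repressor gene, was at 22.3 and 25.6 TPM in EV, at 46.0 TPM in sh5 and at 49.0 and 30.9 TPM in sh7. Spns1, a lysosomal lipid transporter gene, was at 64.8 and 68.7 TPM against 103 TPM, and Efna3, an ephrin ligand gene, at 4.10 and 3.86 TPM against 7.17 TPM. In all 5 of these genes at least 1 sh7 library also lay above both EV libraries, and Spns1 reached 93.4 TPM in sh7. The Timm10b entry ENSMUSG00000110234 was at 0.984 and 4.77 TPM in EV and 19.02 TPM in sh5, but a second entry of that symbol was at 73.8, 72.3 and 73.6 TPM, so the division of reads is uncertain. The same holds for Pam16l, at 12.7 and 7.85 TPM in EV and 26.6 TPM in sh5, beside Pam16.

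Short RNA loci are measured poorly in TPM because they are short and many lie in host introns. Of 45 small nucleolar RNA loci past the filter 30 lay below both EV libraries, 17 of them by at least 1 log2 unit, and 3 above. Over all genes the shares were 43.9%, 1.18% and 27.2%. Of the 45 loci 18 were listed at 0 in sh5 and 4 in each EV library, and an exact 0 can be a failed estimate. Those 18 passed the filter through EV alone and could not lie above it, so these counts are in part set by the filter. The part of such zeros in these counts was not tested. Snord72 was listed at 0 in sh5, against 17.1 and 11.05 TPM in EV, and was at 6.55 and 17.3 TPM in sh7. Snora31 was at 15.01 and 16.6 TPM in EV and 3.48 TPM in sh5. Of 27 microRNA hairpin loci 11 lay below and 4 above, a lower share below than the 43.9% of all genes. Yet their median was -0.85, with 6 at least 1 log2 unit below and 1 at least 1 log2 unit above. In sh5 11 of these loci were listed at 0, against 6 and 5 in EV replicates 1 and 2. Those 11 also passed the filter through EV alone, so the median is in part set by the filter. A locus at 0 in an EV library cannot lie below both, so the share below is a poor measure here. On the higher side were the ribosomal RNA Rn18s, at 392 and 416 TPM in EV and 585 TPM in sh5, and Mir6236, at 4690 and 4780 TPM against 6689 TPM.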

How the data were processed

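TPM values deposited by the authors were used for 5 poly(A) libraries (EV 2, sh5 1, sh7 2), with kallisto 0.48.0 named in the submitters' processing notes. Neither the build nor the annotation, the strand setting or the summing of transcripts is given in the sources used here, and TPM keep no depth, so no counting error was derived. Of 22339 genes without a symbol, 19991 were named from a reference table.

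Values were taken as log2(TPM + 1), for genes averaging at least 1 TPM across the EV and sh5 libraries. limma 3.58.1 in R 4.3.3 (trend, two-sided, Benjamini-Hochberg, threshold 0.05) used all 5 libraries in 3 groups with 2 residual degrees of freedom, the lone sh5 library being assumed to vary like the others, and was tested on simulated data. Labels name no separate cultures, so the p-values reflect the spread among these samples alone, possibly technical.

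Members and lists (36, and 5 added) were chosen with earlier results of these data known. Named genes were Drosha, Dgcr8 and Gata3, then up to 15 per direction by distance beyond the nearer EV library at a mean of at least 5 TPM, 5 short loci per direction and 3 members per list. Other members were named after their values were seen. A few genes meeting the rule are left out. Promoter and microRNA sequences were matched by symbol. The 4 small RNA libraries were not analysed here.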

Additional observations from a re-analysis of the deposited data

Results flagged for a closer look

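Each gene here lay on 1 side of both EV libraries in sh5 and on the other side in both sh7 libraries. The EV libraries are shared by both comparisons, so the difference was tested between sh5 and sh7 directly with limma. It passed for Dgcr8 (sh5 minus sh7 -2.72, limma adjusted p = 0.025) and Mir22hg (sh5 minus sh7 -4.23, limma adjusted p = 0.025). Against EV, where limma did not call them, sh5 differed by -0.12 for Dgcr8 and -1.33 for Mir22hg. For the others the adjusted p of limma lay between 0.132 and 0.188, and the difference was not shown.

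Below EV in sh5 and above EV in sh7 were further host transcripts, with differences of sh5 from EV of -1.08 for Mir17hg, -0.74 for Dleu2 and -0.52 for Mir100hg. The uridyl transferase gene Tut4 was at -0.79. Mitochondrially encoded mt-Nd4l was at -3.11 and mt-Co1 at -2.16. Among chromosome, spindle and replication genes, Smc4 was at -1.19, Kif15 at -1.27, Kif20b at -1.01 and the DNA polymerase alpha gene Pola1 at -0.41. The Golgi protein genes Trip11 and Golga4 were at -1.22 and -1.13. The splicing regulator gene Rbm25 was at -0.74, the zinc finger gene Zfp512b at -0.71, the antiviral gene Samd9l at -0.71 and the chaperone gene Hspa4l at -0.27. The small nucleolar RNA loci Snord83b and Snord49a were at -0.92 and -0.57. Above EV in sh5 and below EV in sh7 were Ndufb2 at 0.37, Rplp1 at 0.34, Rps23 at 0.28 and Herpud1 at 0.36.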

How the results depend on the processing

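Counts past the EV range moved most with the filter and with the controls. With no filter on low values, 6475 genes were above both EV libraries, 8781 were below them, 116 lay at least 1 log2 unit above, and limma called 215 genes. With a pseudocount of 0.1 the counts at least 1 log2 unit beyond EV were 55 above and 234 below, and with a mean of at least 5 TPM they were 3 and 55. Leaving out each EV replicate gave 5027 to 5359 genes above, 100 to 327 at least 1 log2 unit above and 261 to 409 below, and limma called 0 to 35 genes when any 1 EV or sh7 library was left out, 35 without EV replicate 2. The cause was not tested. The log2 difference of Drosha kept its sign and did not pass limma under the settings run, from -0.51 with the replicate block to -0.72 without EV replicate 2 (adjusted p 0.426 to 0.791). The replicate numbers are not stated to pair samples (r = -0.01 between EV and sh7 pair differences), and with the block limma called 0 genes. Between 16 and 19 of 32 list medians lay above that of all genes. Signs turned for Kpna1 (0.019 under quantile normalization, 0.026 with the replicate block, -0.21 and 0.067 without EV replicates 1 and 2), Kpna4 (-0.087 and 0.30) and Kpna6 (0.050 under median-of-ratios scaling, 0.033 under quantile normalization, 0.056 and -0.099). TPM carry no depth, and 1 sh5 library cannot show its own spread.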

Other observations

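Several genes at least 1 log2 unit below both EV libraries in sh5 belong to none of the groups above, and they were picked out after their values were seen. Adamts1, a secreted metalloprotease gene that acts on proteoglycans, was at 81.5 and 51.6 TPM in EV, at 21.6 TPM in sh5 and at 35.1 and 70.6 TPM in sh7. Rock2, a kinase that contracts actomyosin, was at 37.4 and 39.4 TPM in EV and 17.8 TPM in sh5, and Eea1, an early endosome tether gene, at 10.3 and 11.6 TPM against 4.36 TPM. The chromatin genes Pbrm1 (49.1 and 44.2 TPM in EV against 21.1 TPM in sh5) and Kmt2e (19.8 and 21.4 TPM against 8.83 TPM) lay at similar distances. In all 4 of Rock2, Eea1, Pbrm1 and Kmt2e the sh7 values were within 1 log2 unit of EV. Nktr, a cyclophilin gene with arginine and serine repeats like those of Ppig, was at 32.3 and 25.1 TPM in EV and 11.2 TPM in sh5.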
